A study of Mus musculus with 2 samples.

Results

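The aorta of hyperlipidaemic mice holds smooth muscle cells, fibroblasts, endothelial cells and immune cells, and the depositing authors sorted single-cell barcodes from it into 13 cell classes. The barcodes described here got no class although they lay within ordinary quality limits. They were chosen by the absence of a class and by 3 measured values: a barcode of the count matrix was taken when the authors' annotation gave it no class (absent from the list, blank or N/A), at most 50% of its UMIs came from haemoglobin genes, at most 10% came from mitochondrially encoded genes, and it had fewer than 3000 detected genes. A UMI (unique molecular identifier) counts 1 captured RNA molecule. The rule found 912 of 7673 barcodes, of which 9 were among 3458 in the diabetic library and 903 among 4215 in the control library (21.4%, exact Clopper-Pearson 95% interval 20.2 to 22.7%). In the control library the authors classified 3060 barcodes, and these classified control cells are the comparison set below.

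All mice were male and Apoe-/- (lacking apolipoprotein E) on the C57BL/6 strain. Diabetic mice got streptozotocin, a toxin of insulin-producing cells, at 55 mg/kg per day and control mice got citrate vehicle. Both were injected on 5 consecutive days from 6 weeks of age, followed for 10 weeks and sampled at 17 weeks of age. Each library pooled digested aortic cells of 4 mice, sorted on 7AAD and calcein as viable and metabolically active, and run on the 10x Genomics 3' v2 droplet chemistry.

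In droplet sequencing each barcode is meant to label the RNA of 1 cell. It can also carry RNA that was free in the suspension, or RNA of several cells. Where the RNA of the unclassified barcodes came from was not tested. Malat1 is a long noncoding RNA that stays in the nucleus, haemoglobin transcripts come from red blood cells and their precursors, and mitochondrially encoded transcripts come from the organelle's own genome.

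The libraries held 17647604 UMIs in the diabetic and 15314749 in the control matrix. With 1 library per group, and with the 903 and the 3060 barcodes taken from the same library, no replicate test was possible, and no p-value is given. Intervals cover counting error at the 95% level and are not adjusted over genes. Of the barcode sequences, 15 occurred in both libraries, and 1 of these was an unclassified control barcode. Apoe had 0 UMIs in the 903 unclassified barcodes and 48 UMIs in the classified control cells (3.87 CPM, UMIs per 1000000).

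The unclassified control barcodes formed a narrow band of depth. They had a median of 1449 UMIs (5th to 95th percentile 1214 to 1927, range 500 to 4019), against 3760 UMIs in classified control cells (953 to 8416). Between 1200 and 2000 UMIs lay 834 of the 903 unclassified barcodes (92.4%), against 349 of the 3060 classified cells (11.4%). Below that window were 39 of the unclassified barcodes and above it 30. They had a median of 798 detected genes, against 1463 in classified cells.

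The composition of the unclassified barcodes varied less than that of classified cells in mitochondrial and ribosomal protein shares. Mitochondrial UMIs made up a median of 6.35% (SD over barcodes 0.80), against 2.87% (SD 1.64) in classified cells. Ribosomal protein transcripts made up 14.3% (SD 1.08) against 13.1% (SD 5.64). Haemoglobin transcripts were present on each of the 903 unclassified barcodes, with a median of 13 UMIs (5th to 95th percentile 6 to 25), while the median classified cell had 0 (0 to 2). A few classified cells had very many, up to 9223 UMIs, so the means of the sets, 14.1 and 8.77 UMIs per barcode, lie closer than the medians. Mitochondrial and haemoglobin shares were capped by the rule itself and are given as a description. The 3 unclassified barcodes nearest to the mitochondrial limit had 8.89, 9.54 and 10.0%, and the 3 just beyond it 10.03, 10.06 and 10.11%. Few lay near that limit, as the 95th percentile of the unclassified barcodes was 7.52%. The other limits fell in wide gaps. The highest haemoglobin share inside was 4.72% with 77.1% as the next beyond, and the highest gene number inside was 1632 with 3002 as the next beyond. Through the order of the matrix columns, the unclassified barcodes made up 18.8 to 23.7% of each of 10 equal stretches of the control library.

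**Figure D1:**
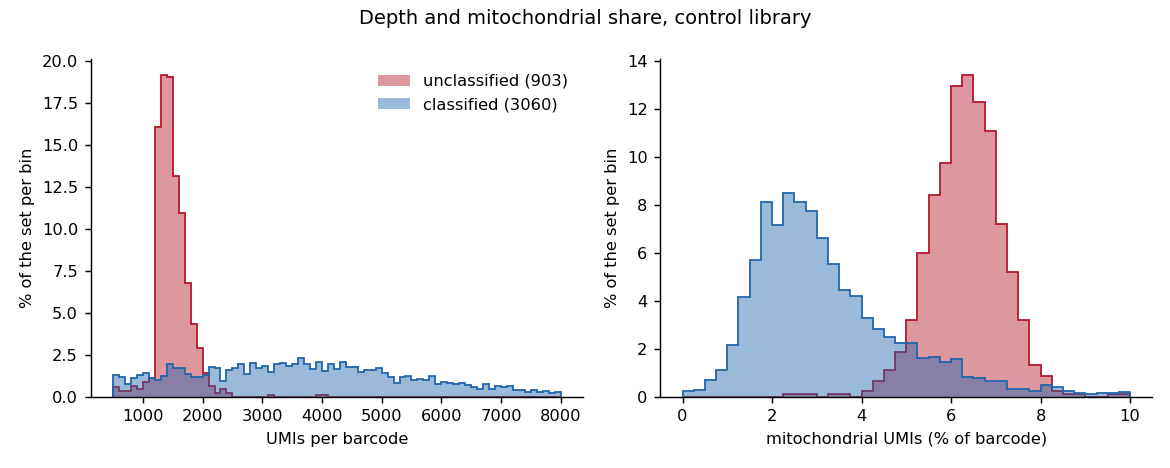
Share of the 903 unclassified (red) and 3060 classified (blue) control barcodes per bin of UMI number (left, bins of 100 UMIs, drawn to 8000, with 194 classified cells above) and of mitochondrial percentage (right, bins of 0.25 percentage points). The unclassified barcodes stand in 1 narrow peak between 1200 and 2000 UMIs and around a median of 6.35% mitochondrial UMIs, while the classified cells spread widely over depth.

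The unclassified barcodes were split over 3 classes in which they came nearest, and which class led depended on the method. For each barcode the likelihood of its counts was computed under the summed profile of each class, and the class with the highest likelihood was called its nearest. By that rule 409 of the 903 (45.3%, interval 42.0 to 48.6%) were nearest to Fib-2, 285 (31.6%, 28.5 to 34.7%) to Mac and 203 (22.5%, 19.8 to 25.3%) to Fib-1, the authors' names for 2 fibroblast classes and the macrophage class. The smooth muscle classes VSMCs-1 and VSMCs-2 took 3 and 2 barcodes, the endothelial class ECs took 1, and the remaining 7 classes took 0. With the class profiles of the diabetic library 57.5% were nearest to Mac, and with a rank correlation over 2000 variable genes 53.5% were nearest to Fib-1. Without mitochondrial, ribosomal protein and haemoglobin genes 73.9% were nearest to Fib-2. The class sums kept classified cells rich in haemoglobin. Haemoglobin made up 0.252% of the Fib-1 sum and 0.370% of the Mac sum, but 0.0138% of the Fib-2 sum. The highest single cells held 1119, 9223 and 21 haemoglobin UMIs. The split between Fib-1, Mac and Fib-2 may rest in part on those cells, and it was not recomputed without them.

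A profile averaged over classes described them better than any class did. Under the summed profile of all classified control cells, 901 of the 903 (99.8%, interval 99.2 to 100%) had a higher likelihood than under their nearest class. Classified cells left out of the profiles and thinned to 1449 UMIs did so in 77 of 2708 cases (2.84%, 2.25 to 3.54%), and 89.2% of them were given their own class back; 352 classified cells were too shallow for this check. That share differed by class, with 92.4% for Fib-2 and 97.1% for Mac but 48.9% for Fib-1 (89 of 182) and 26.0% for VSMCs-1 (25 of 96), so a nearest class of Fib-1 is the least certain of the 3 that lead. The lead of the best class over the next was a median of 24.8 log likelihood units in unclassified barcodes and 122 in the thinned classified cells. Without mitochondrial, ribosomal protein and haemoglobin genes the average profile was again ahead for 901 of the 903. For 872 of the 903 the best profile was the sum of the other unclassified barcodes. Over 4667 genes with at least 30 UMIs in the unclassified sum, its log2 CPM had a Pearson correlation of 0.97 with the sum of the classified control cells and at most 0.74, for Fib-2, with a single class; this is across genes, which are not independent, and the sums share library and chemistry.

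Markers of 4 cell types were found side by side on most unclassified barcodes. After each barcode was thinned to 1000 UMIs, 534 of 882 unclassified barcodes (60.5%, interval 57.2 to 63.8%) carried at least 1 UMI from each of the smooth muscle, fibroblast, endothelial and macrophage lists, against 64 of 2885 classified cells (2.22%, 1.71 to 2.82%). The thinning left out 21 unclassified and 175 classified barcodes, and the shares without thinning were 75.4 and 17.8%. The list with most UMIs held a median of 45.3% of the UMIs of the 4 lists on an unclassified barcode, against 97.9% on a classified cell.

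Fibroblast markers (such as Dcn, the matrix proteoglycan decorin, and Col1a1, a chain of type I collagen) made up a median of 2.07% of the UMIs of an unclassified barcode (5th to 95th percentile 1.42 to 2.88%), against 6.05% (2.0 to 10.7%) in Fib-2. Smooth muscle markers (such as Acta2, smooth muscle actin, and Myh11, smooth muscle myosin) made up 1.01% (0.62 to 1.5%), against 6.03% (2.35 to 8.63%) in VSMCs-2. Macrophage markers (such as Lyz2, lysozyme, and the complement genes C1qa, C1qb and C1qc) made up 1.47% (0.89 to 2.07%), against 4.31% (1.57 to 7.63%) in Mac. Endothelial markers (such as Pecam1, the adhesion molecule CD31) made up 0.076% (0 to 0.25%), against 0.82% (0.39 to 1.73%) in ECs. The 5th to 95th percentile ranges of the unclassified barcodes and of the classes named here overlapped for fibroblast and macrophage markers and did not for smooth muscle and endothelial markers. In VSMCs-1, the other smooth muscle class, smooth muscle markers ran from 0.707 to 8.92%, which overlaps the unclassified range. The unclassified median of each list lay below that of its own class and above those of the other 3 classes plotted.

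**Figure D2:**
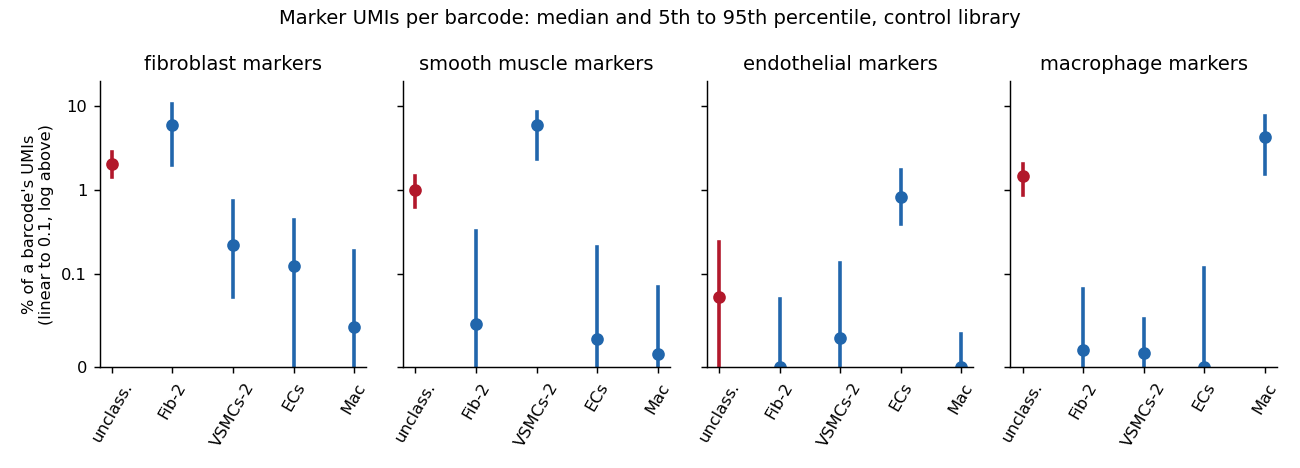
Percentage of a barcode's UMIs from the fixed marker lists of 4 cell types (one panel each) in unclassified control barcodes (red) and in the classes Fib-2, VSMCs-2, ECs and Mac (blue); points are medians over barcodes, lines run from the 5th to the 95th percentile, and the axis is linear to 0.1 and logarithmic above. Each class has a high median in the panel of its own markers and at most 0.224% in the other 3, whereas the unclassified barcodes sit at an intermediate level in each panel.

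Single genes of 1 cell type were on nearly every unclassified barcode. Cd74, the invariant chain of MHC class II molecules, had a UMI on 99.9% of unclassified barcodes (median 11 UMIs, 5th to 95th percentile 5 to 19), against 27.6% of VSMCs-2 cells (median 0), although the median depths were 1449 and 5547 UMIs. Acta2 had a UMI on 99.7% of them (median 8, 4 to 14), against 38.6% of Mac cells (median 0) at a median depth of 4506 UMIs. Dcn had a UMI on all 903 (median 10, 5 to 17), against 32.4% of Mac cells (median 0). These genes were thus above the level in a class that should lack them. As mean UMIs per barcode, VSMCs-2 cells carried 4.23% of the Cd74 of unclassified barcodes, 3.94% of their Lyz2, 4.61% of their haemoglobin and 18.7% of their Dcn. Other shares were higher. For the whole fibroblast marker list VSMCs-2 cells carried 59.4%, and Fib-2 cells carried 30.0% for the smooth muscle list. For haemoglobin the means of Mac, ECs and VSMCs-1 were 134, 168 and 323% of the unclassified mean, although their median cells had 0 UMIs.

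The spread among unclassified barcodes was close to that of random draws from 1 profile. At 1000 UMIs per barcode, counts drawn at random from 1 fixed profile have a variance close to the mean for each gene. The ratio of variance to mean had a median of 1.00 over 2422 genes on unclassified barcodes, and the class medians, at 0.97 to 1.05, were close to it. The sets differed in the genes far above 1: on unclassified barcodes 4 of the 2422 genes (0.165%) exceeded 1.5. In the classes with at least 50 cells, the share of genes above 1.5 ran from 3.99% in VSMCs-2 (98 of 2456) to 8.38% in Mac (190 of 2266). Thinned to 500 UMIs, 2 of 1315 genes did so on unclassified barcodes.

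The 4 genes were Malat1, Retnla, Hbb-bs and Mgp, and they were chosen after their values were seen. Malat1 had a ratio of 11.5, Retnla (resistin-like alpha, a secreted protein of alternatively activated macrophages) 1.97, Hbb-bs (a beta globin) 1.79 and Mgp (matrix Gla protein, an inhibitor of calcification) 1.79. Without the 31 barcodes that another profile described better than the sum of the other unclassified barcodes, the ratio was 1.08 for Mgp and 8.0 for Malat1. Of those 31 barcodes, which had 514 to 3162 UMIs, 26 had a Malat1 share above the 95th percentile of the unclassified barcodes, and 2 were described best by a class.

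Malat1 (chromosome 19, 5795690 to 5802672 on GRCm38, a long intergenic noncoding RNA) was low on most unclassified barcodes and varied widely. It made up a median of 1.02% of their UMIs (5th to 95th percentile 0.31 to 4.11%, highest 12.2%), against 3.35% (0.82 to 8.56%) in classified cells. The 2 ranges overlapped widely, and the medians of the 7 classes with at least 50 cells lay between 2.96% in Fib-3 and 3.85% in VSMCs-1. The 226 unclassified barcodes with the highest Malat1 share had a median of 2.78%, and the 226 with the lowest 0.46%. Their median depths were 1466.5 and 1436.5 UMIs, and their median mitochondrial shares 5.94 and 6.65%. Of 921 genes with at least 100 UMIs in both of these sets together, 7 were at least 1.5-fold higher and 8 lower, Malat1 included. Neat1, another nuclear noncoding RNA, was 1.46 times as high (1.05 to 2.03) in the high-Malat1 set.

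**Figure D3:**
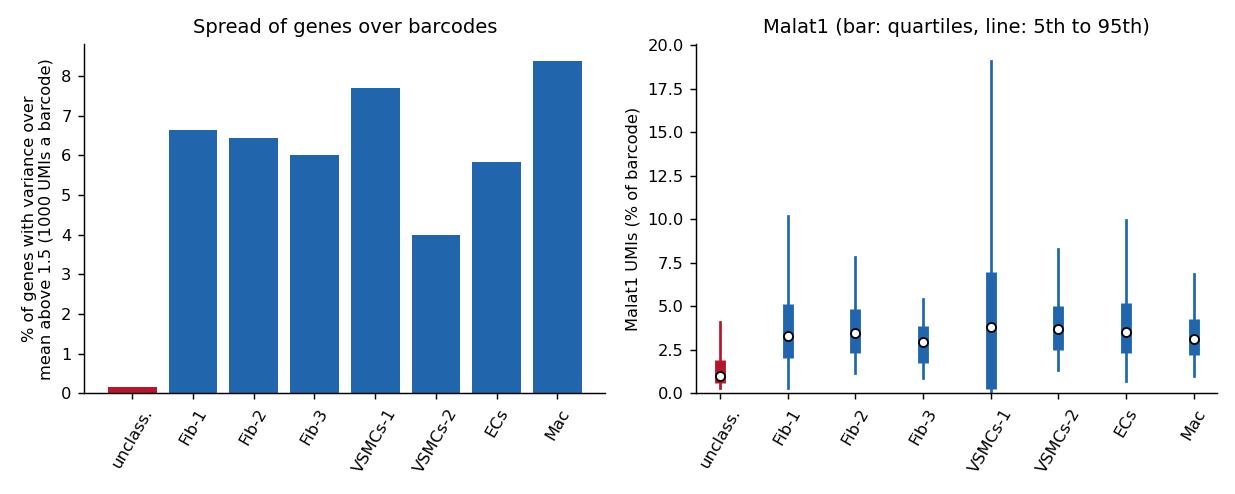
Left, percentage of genes whose variance over barcodes exceeded 1.5 times the mean at 1000 UMIs a barcode, in unclassified control barcodes (red) and in 7 classes (blue). Right, Malat1 as a percentage of a barcode's UMIs (circle, median; thick bar, quartiles; line, 5th to 95th percentile). The unclassified barcodes show 0.165% of genes above 1.5 and a median Malat1 share of 1.02%, below the medians of the 7 classes.

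The summed unclassified barcodes were next written as a weighted mixture of the 13 class profiles and the profile of the 29 haemoglobin-rich control barcodes. The fitted weights were 35.4% myeloid classes (the authors' Mac, Foam cells, Mono and MoDC), 30.8% fibroblast classes, 22.4% smooth muscle classes, 8.06% endothelial class, 2.53% lymphoid classes and 0.736% haemoglobin-rich. The same groups held 25.04, 39.3, 25.1, 8.82 and 1.72% of the UMIs of classified control cells. The myeloid weight was therefore above, and the fibroblast weight below, the share in classified cells. In 4 groups of unclassified barcodes by depth the myeloid weight lay between 34.1 and 36.6% and the smooth muscle weight between 21.9 and 22.7%. A least squares fit gave 36.8% myeloid, 32.4% fibroblast and 19.5% smooth muscle. No interval is given for the weights, and the split within a group was unstable: Fib-1 took 16.2% in the first fit and 6.65% in the second.

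**Figure D4:**
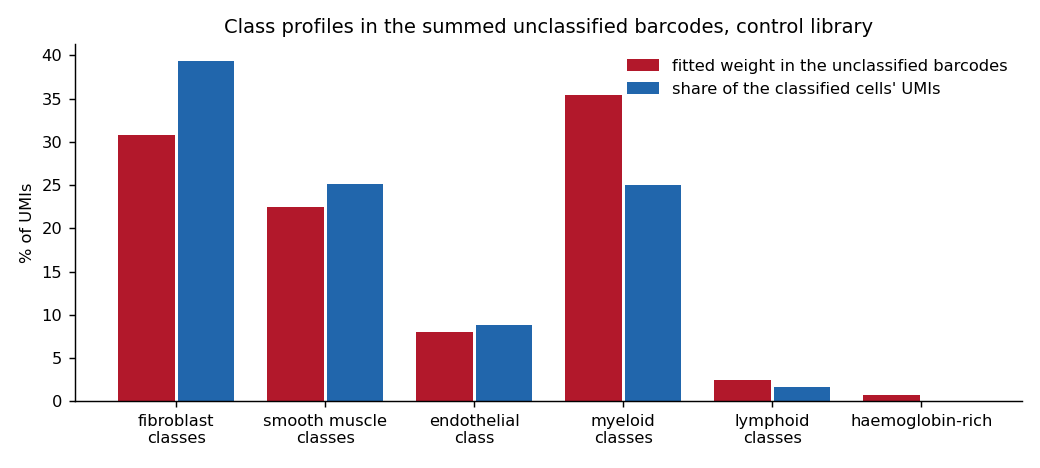
Fitted weight of each group of class profiles in the summed unclassified control barcodes (red) beside the share of the group in the UMIs of the classified control cells (blue); the haemoglobin-rich profile has no classified cells. The myeloid classes weigh 35.4 against 25.04% and the fibroblast classes 30.8 against 39.3%.

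Gene by gene, 418 of 11730 genes with at least 30 UMIs in both sets together were at least 1.5-fold higher in unclassified barcodes than in classified control cells with an interval that excluded 1 (3.56%), and 1045 were lower (8.91%). The median gene stood at -0.12 on the log2 scale. With trimmed mean scaling, which moved that median to -0.01, the split was 676 higher and 697 lower. Against the fitted mixture, 258 of 7242 genes were higher (3.56%) and 691 lower (9.54%), with the median gene at -0.06. The direction of a small difference thus depended on the scaling. Because the authors' classes were made from these same genes, the values below are descriptions. The mixture was fitted to the counts of these same unclassified barcodes, which draws ratios of class markers over it toward 1.

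Wtap, a subunit of the RNA m6A methyltransferase complex, had 108 CPM in unclassified barcodes and 23.9 CPM in classified cells, a ratio of 4.51 (3.67 to 5.52). Pam (chromosome 1, 97795114 to 98095646), which amidates peptide hormones, had 1781 and 477 CPM, a ratio of 3.73 (3.56 to 3.91). Actb (chromosome 5, 142903115 to 142906754), cytoplasmic beta actin, had 10998 and 4300 CPM, a ratio of 2.56 (2.51 to 2.60). Actb was on 99.9% of the unclassified barcodes and Pam on 93.1%, against 96.3 and 59.4% of classified cells. The ratios of Slc39a1 (a zinc transporter), Abhd2 (a hydrolase), Kdm6b (a histone H3K27 demethylase), Alkbh5 (an m6A demethylase) and Notch2 (a Notch receptor) lay between 2.49 and 3.23. Against the fitted mixture the ratios of these 8 genes ranged from 2.32 for Kdm6b to 4.20 for Wtap. Trbc2 and Trbc1, the T cell receptor beta constant regions, stood at 2.73 (2.40 to 3.1) and 2.35 (1.97 to 2.80) against classified cells and at 1.79 and 1.28 against the mixture; the 2 genes are near-identical, so their separate counts are uncertain.

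Of the lower genes, Malat1 had 14823 CPM in unclassified barcodes and 36264 CPM in classified cells, a ratio of 0.409 (0.403 to 0.415). Kcnq1ot1, a nuclear antisense RNA of an imprinted cluster, stood at 0.324 (0.219 to 0.463), and reads from it and its host gene cannot be told apart without strand. Atg5, an autophagy gene, had 8.17 and 32.9 CPM, a ratio of 0.249 (0.123 to 0.45). Map1b (a microtubule-associated protein), Ahnak2, Arid5b (a DNA-binding protein), Glg1 (a Golgi glycoprotein), Klf9 (a zinc-finger transcription factor) and Fermt2 (an integrin activator) lay between 0.300 and 0.378. Tagln (transgelin, an actin-binding protein of smooth muscle) stood at 0.419 (0.400 to 0.440), but at 1.39 against the 318 classified cells within the UMI range of the unclassified barcodes and at 5.55 against classified cells weighted by nearest class. Those 318 cells included no VSMCs-2 cell, as that class began at 2587 UMIs. In the weighting, VSMCs-1 and VSMCs-2 counted for the 3 and 2 barcodes nearest to them. Both settings thus leave out most smooth muscle cells.

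**Figure D5:**
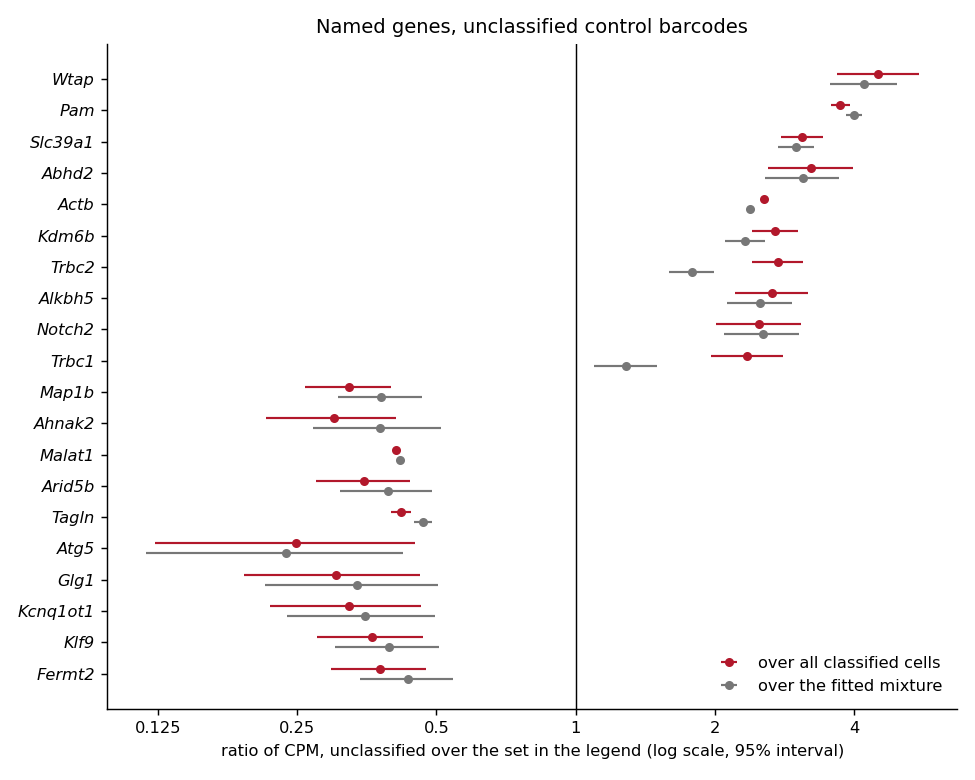
Ratio of CPM of the 10 highest and 10 lowest named genes in unclassified control barcodes, over the summed classified control cells (red) and over the fitted mixture of class profiles (grey), on a log scale with 95% counting intervals. Apart from Trbc1 and Trbc2, whose ratios are 2.35 and 2.73 over classified cells and 1.28 and 1.79 over the mixture, the ratios over the 2 sets have the same direction and similar size; the ratio of Tagln reverses under 2 other weightings given in the text.

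For 20 genes the level in unclassified barcodes was above that of each of the 7 classes with at least 50 cells, with separate Poisson intervals, and for 12 it was below each (0.171 and 0.102% of 11730 genes). Among the 20 were 8 mitochondrially encoded genes, and Pam, Actb, Wtap, Slc39a1 and Notch2. Jchain and Igha, antibody genes of plasma cells, were also among them, with 44.6 and 183 CPM, against at most 3.83 and 17.3 CPM in a class of that size, but their ratios to the mixture, which also holds the smaller classes, were 0.716 and 1.14. The 12 were Malat1, Son, Srrm1, Srek1, Rbm39, Ash1l, Phip, Eif5b, Psmd11, Arid5b, Atg5 and Hsp90ab1. Son had 205 CPM, against 305 CPM in its lowest class, VSMCs-2. These genes were picked after their values were seen.

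Beside a median of -0.12 over all genes tested, the median log2 ratio over classified cells was 0.47 for macrophage, -0.28 for fibroblast and -0.41 for smooth muscle markers. Among all genes tested 3.56% were higher and 8.91% lower than in classified cells, and 3.56% higher and 9.54% lower than in the mixture. With classified cells weighted by nearest class the medians were -0.03, -0.98 and 2.47, so the macrophage median moved close to 0. VSMCs-1 and VSMCs-2 were nearest for 3 and 2 barcodes, so that weighting nearly leaves out smooth muscle cells. A smooth muscle median far above 0 was thereby built in. Of 9 macrophage markers, 2 were higher than in classified cells (Cd68, a lysosomal membrane protein, at 1.51, and Lyz2 at 1.58) and 0 were lower. Against the mixture 0 of 9 differed, with a median of 0.03. The mixture was fitted to these barcodes' own counts, so for each marker list a ratio near 1 against it is partly built in. Of 8 foam cell genes 3 were higher than in classified cells, Trem2 (a lipid receptor) at 1.74, Mmp12 (a macrophage elastase) at 1.69 and Spp1 (osteopontin) at 1.58, and Lpl (lipoprotein lipase) was lower at 0.608. Against the mixture 0 of the 8 were higher and Lpl was lower, the median was -0.15 against 0.32 over classified cells, and Mmp12 stood at 0.701 (0.569 to 0.855), the opposite direction. Of 9 fibroblast markers 2 were lower, Col1a1 at 0.645 and Col1a2 at 0.641, and against the mixture 0 were lower while Lum (lumican, a collagen-binding proteoglycan) was higher at 1.52. Of 9 smooth muscle markers 4 were lower, and the same 4 were lower against the mixture: Tagln at 0.468 (above 1 over classified cells of like depth or weighted by nearest class), Des (desmin) at 0.542, Mylk (myosin light chain kinase) at 0.658 and Lmod1 (leiomodin) at 0.659. The cells of like depth included no VSMCs-2 cell, as that class began at 2587 UMIs. Both settings thus leave out most smooth muscle cells, which bears on each gene of this list. Des, Mylk and Lmod1 are not given under them. Acta2, in the same list, stood at 0.751 against classified cells and 0.835 against the mixture. Of 9 endothelial markers 1, Emcn (endomucin), was lower at 0.635 (not called without the ECs cell with most of its UMIs, at 0.671), and against the mixture 0 of 8 differed.

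Red cell transcripts and 5 of 7 T cell markers were higher than in classified cells, beside 3.56% higher and 8.91% lower among all genes tested. The haemoglobin share was part of the rule, so the first is a description. Of the 7 erythroid genes with enough UMIs all 7 were higher than in classified cells, with Hbb-bs at 5.19 (5.03 to 5.35) and Alas2, the first enzyme of haem synthesis in red cells, at 2.48 (1.57 to 3.79). These ratios rest on a few classified cells: without the 4 whose haemoglobin share exceeded the highest unclassified one, they were 54.6 (51.3 to 58.3) for Hbb-bs and 42.8 (17.4 to 126) for Alas2, and 1 Mac cell held 4003 of the 11958 classified Hbb-bs UMIs. The haemoglobin paralogs are near-identical in part, and their separate counts are uncertain. Against the mixture, which includes the haemoglobin-rich profile and was fitted to these barcodes' own counts, 0 of 5 differed. Among the T cell markers were Cd8a (the CD8 coreceptor) at 3.63 and Cd3d (a chain of the CD3 complex) at 2.12; against the mixture 2 of 6 were, Cd8a at 2.29 and Trac (the T cell receptor alpha constant region) at 1.78. Of 4 neutrophil genes 2 were called lower, S100a9 at 0.641 and Retnlg at 0.570, but each call rests on 1 Mac cell, without which the ratios were 0.996 (0.88 to 1.12) and 0.812 (0.573 to 1.12). A neutrophil UMI was on 56.6% of unclassified barcodes, against 6.80% of classified cells and 21.2% of Mac cells. Of 6 monocyte genes 1, Vcan, was lower at 0.661. Against the mixture 3 of 4 neutrophil and 4 of 6 monocyte genes were lower, with a monocyte median of -0.80; the Mono profile in the mixture rests on 9 cells. Ccl21a, a chemokine of lymphatic endothelium, had 2 UMIs in unclassified barcodes and 363 in classified cells, a ratio of 0.051 (0.006 to 0.184); 1 ECs cell held 182 of the 363, and without it the ratio was 0.102 (0.012 to 0.373).

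Among lists of cell state, mitochondrially encoded genes were higher and nuclear-retained RNAs lower. The mitochondrial share was part of the rule, so the first is a description. Of 13 mitochondrially encoded genes 10 were higher, with mt-Co3 (a cytochrome c oxidase subunit) at 2.27 and mt-Cytb at 2.14, and 0 were lower; the median log2 ratio was 0.95. Of 20 nuclear genes of the respiratory chain 0 were higher and 0 lower, with a median of -0.03. Of 6 RNAs listed as nuclear-retained 4 were lower, Malat1, Kcnq1ot1, Gm42418 (0.385) and Neat1 (0.664), with a median of -0.94, and Meg3 stood at 0.755. Gm42418 is an unnamed gene model, and whether its RNA stays in the nucleus was not tested. Of 22 immediate early genes, which are induced within minutes of stimulation or tissue handling, 3 were higher (Gadd45b at 1.54, Ier5 at 1.63 and Maff at 1.67) and 2 lower (Btg2 at 0.637 and Klf6 at 0.655). Of the 7 AP-1 subunits, chains of a transcription factor induced early, Fosl1 was the one called, higher at 1.81 (1.2 to 2.64). The others were within 1.5-fold: Fos at 1.05, Fosb at 1.02, Fosl2 at 1.11, Jun at 0.786, Junb at 0.935 and Jund at 0.853. Of 15 heat shock genes 0 were higher and 3 lower, with Hsp90aa1 at 0.611 and Hsp90ab1 at 0.612. Of 20 collagen and matrix genes 5 were lower, and against the mixture 0 were. These counts compare with 3.56% higher and 8.91% lower among all genes tested.

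Set against the classified cells of their nearest class, the unclassified barcodes were highest in genes of other cell types. Since nearest classes were assigned from these genes, this is a description. The 409 nearest to Fib-2 had 919 of 8613 genes higher (10.7%) and 1462 lower (17.0%) than the 907 classified Fib-2 cells. Cd74 had 7204 CPM in these barcodes and 122 CPM in Fib-2 cells, a ratio of 59.0 (53.5 to 65.2), and it was on 100% of the unclassified barcodes and 26.0% of the cells. Adgre1 (the macrophage antigen F4/80), Mgl2 (a macrophage lectin), Bcl2a1b and Ccl24 (a chemokine of macrophages) led with it. Cygb (cytoglobin), Pdgfrl, Clec11a (a secreted growth factor) and Mmp3 (stromelysin) were among the lowest, with ratios of 0.193 to 0.254.

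The 285 nearest to Mac had 1162 of 6910 genes higher (16.8%) and 1141 lower (16.5%) than the 510 classified Mac cells. Acta2 had 5267 CPM in these barcodes and 162 CPM in Mac cells, a ratio of 32.5 (29.3 to 36.1). Lum stood at a ratio of 37.1, Myl9 (a myosin light chain) at 38.2, Pam at 60.7 and Tcap, a muscle gene, at 117 (38.1 to 584) with 3 UMIs in Mac cells. Fyb (an adapter protein of immune cells), Hpgds (a prostaglandin D synthase), Ankrd11, Atp2b1 (a calcium pump) and Adap2os were the lowest, with ratios of at most 0.188.

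The 203 nearest to Fib-1 had 444 of 3326 genes higher (13.3%) and 756 lower (22.7%) than the 386 classified Fib-1 cells, whose median depth of 1410 UMIs was close to the 1365 UMIs of these barcodes. Lyz2 had 6894 CPM in these barcodes and 213 CPM in Fib-1 cells, a ratio of 32.4 (26.7 to 39.6), and Ccl5 (a T cell chemokine), H2-Ab1 (an MHC class II chain), C1qb and Cd74 were the other 4 highest. Smoc2, Col3a1 (a chain of type III collagen), Clec11a, Ccdc80 and Col1a2 were the lowest, at 0.189 to 0.263. Cd74 was on 100% of these barcodes, as it was on those nearest to Fib-2.

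The 9 diabetic barcodes were not one kind. These barcodes had 656 to 2169 UMIs, and 3 of them had 40.2, 45.4 and 45.7% haemoglobin UMIs, just inside the limit; 2 others had 9.10 and 8.23%, and the remaining 4 had 0.191 to 1.68%. Of the 9, 4 were nearest to Mac, 3 to VSMCs-1, 1 to Fib-2 and 1 to Fib-1. The 3 nearest to VSMCs-1 were those with 40.2 to 45.7% haemoglobin, and they carried 7 to 13 UMIs of Acta2. The control VSMCs-1 sum was 1.89% haemoglobin, the highest of the classes with at least 50 cells. In it 1 cell held 6084 haemoglobin UMIs, while the median cell had 0. Likeness to smooth muscle cannot be read from this nearest class. The average profile of classified control cells was ahead of each class in 3, against 901 of the 903 control barcodes, and the sum of the unclassified control barcodes was the best profile in 4. The Mac-nearest barcode with 1761 UMIs carried 57 UMIs of Cd74, 22 of Lyz2, 19 of Acta2 and 1 of Dcn. With 9 diabetic barcodes, no comparison between diabetic and control mice was made.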

How the data were processed

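Each deposited matrix gives, for a gene and a barcode, the raw count of UMIs. Cell Ranger 3.1.0, Partek (no version) and mm10 are named, per the submitters' processing notes. Neither the annotation release nor the reason why barcodes lack a class is given in the sources used here. The authors' deposited table gives a class to 2524 diabetic and 3060 control barcodes, and 2 diabetic barcodes are listed without one. The barcodes, gene lists and tests were chosen with earlier results of these data known.

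UMIs were summed over barcodes, scaled to CPM and set as a ratio of unclassified over classified with an exact conditional binomial 95% interval, which covers counting error alone; PCR and capture are not in it. A gene was called at 1.5-fold with an interval excluding 1 and at least 30 UMIs in both sets together. For a ratio, 0 UMIs were replaced by 3 in that set. Shares have Clopper-Pearson intervals. Nearest classes used multinomial likelihoods of profiles smoothed with 1000 UMIs of the library mean, checked on classified cells in 10 folds, and mixture weights came from expectation maximisation. The likelihoods, the mixture fit and the ratios were tested on simulated data. Named genes are the 10 highest and 10 lowest ratios (5 and 5 within a nearest class), ranked by the interval bound nearest to 1, with a UMI in at least 10% of the barcodes of the higher set and no barcode with over 10% of that set's UMIs; mitochondrial, ribosomal protein, haemoglobin and unnamed genes were left out, and up to 4 genes stand for each list. Some genes that meet these rules are not reported here. The unclassified barcodes were not clustered on their own. Scrublet in scanpy 1.11.5 called 6 of 4215 control barcodes doublets (0.142%), among them 1 of the 903, which is too few to treat doublets as removed, so barcodes were kept. Trimmed mean scaling used edgeR 4.0.16. Python was 3.11.15, and gene positions are from GENCODE vM21 on GRCm38.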

Additional observations from a re-analysis of the deposited data

How the results depend on the processing

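No paired analysis was possible because each group had 1 library. Depth limits most genes: at 1449 UMIs a barcode, levels of single genes rest on sums over barcodes, and with 1 library no value has a replicate error. Causes of the shifts below were not tested.

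The share of unclassified barcodes nearest to Fib-2 (45.3%) was 3.65% by rank correlation, 41.9% with diabetic class profiles and 73.9% without mitochondrial, ribosomal protein and haemoglobin genes. For Mac (31.6%) it was 17.3, 57.5 and 24.6% under these settings, 35.9% for leads of at least 10, 26.8% for the 41 barcodes under a 5% mitochondrial limit and 13.8% by marker lists. For Fib-1 (22.5%) it was 53.5, 0.332 and 1.11%, and 19.1% for leads of at least 10. The fibroblast classes together (67.8%) took 57.3, 42.2 and 74.97%, 63.4% for leads of at least 10 and 81.6% by marker lists. The smooth muscle classes together (0.554%) took 1.99% by rank correlation and 4.88% under the 5% limit.

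Against all classified cells, the 418 higher genes became 676 with trimmed mean scaling, 261 at 500 UMIs a barcode, 166 at 2-fold and 1010 when classified cells were weighted by nearest class, and the 1045 lower genes became 649 at 500 UMIs and 447 at 2-fold. At 500 UMIs the higher and lower genes were 211 and 309 within Fib-1, 318 and 533 within Fib-2, and 283 and 348 within Mac. Within Fib-1, 288 were higher at 2-fold and 724 with a minimum of 10 UMIs. Of 470 recomputed values of named genes, 462 kept their direction and call, and 6 kept the direction but lost the call. The remaining 2, both of Tagln, reversed: 5.55 when weighted by nearest class and 1.39 against classified cells of like depth. Among the 462 are 50 values at 2-fold, 50 with a minimum of 10 UMIs and 20 with no minimum. Those could not change, because these settings move only cut-offs that each named gene already passed. The comparisons with the fitted mixture, those without the 31 exceptions and those without single classified cells were chosen after seeing the data.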

Other observations

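Markers of other lymphoid and rarer cells were also measured over all classified control cells, beside 3.56% higher and 8.91% lower among all genes tested. Of 5 NK cell markers with enough UMIs 3 were higher in unclassified barcodes, among them Gzma (granzyme A, a cytotoxic protease) with 107 CPM, against 47.5 CPM in classified cells, a ratio of 2.25 (1.86 to 2.70), and Nkg7 (a granule protein) at 1.63. Of 5 B cell markers 2 were higher, Cd79b at 2.14 (1.53 to 2.93) and Cd79a at 1.54, which encode the signalling chains of the B cell receptor. Of 6 cycling genes 2 were higher, Birc5 (survivin) at 2.21 from 30 UMIs and Ube2c (a mitotic ubiquitin enzyme) at 1.76 from 26 UMIs, while Mki67 stood at 0.815 and Top2a at 1.02. Of 3 adipocyte genes 2 were called lower, Car3 (a carbonic anhydrase) at 0.276 and Cfd (adipsin) at 0.377, each with 5 UMIs in unclassified barcodes, but 1 VSMCs-1 cell held 150 of the 167 classified Car3 UMIs and 113 of the 122 of Cfd. Without it the ratios turned to 2.71 (0.78 to 7.64) and 5.11 (1.35 to 17.0). Of 6 pericyte markers 0 differed. Against the fitted mixture, 3 of 4 B cell markers were higher, with a median log2 ratio of 0.74. In the same comparison 1 of 2 NK cell and 1 of 3 cycling markers were higher, and 0 of these 3 lists' markers were lower. Among all genes tested against the mixture 3.56% were higher and 9.54% lower.

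The other control barcodes without a class were scored against the same profiles without mitochondrial, ribosomal protein and haemoglobin genes. The summed profile of the unclassified barcodes within the limits was the best one for 12 of 150 control barcodes above the mitochondrial limit (8.0%), 2 of 73 with at least 3000 genes (2.74%), 0 of 29 rich in haemoglobin and 8 of 3060 classified cells (0.261%), against 826 of the 903 themselves (91.5%). In the diabetic library it was the best profile for 48 of 324 barcodes above the mitochondrial limit (14.8%), which had a median of 90.5 UMIs left in the genes scored, and for 4 of 2524 classified cells (0.158%). With those genes included, the count was 188 in that diabetic set and 38 of 150 in the control barcodes above the mitochondrial limit.

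When each of the 903 was given to the fixed marker list with most UMIs, 737 went to the fibroblast list (81.6%), 13.8% to the macrophage list, 33 to the erythroid list (3.65%) and 8 to the smooth muscle list (0.886%), and 0 to any of the remaining 17.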
